A study of Mus musculus with 20 samples.

Results

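The aryl hydrocarbon receptor (AHR) pathway was followed through 9 genes, chosen by symbol: Ahr, the receptor; Arnt, its dimer partner; Ahrr, its repressor; the chaperone genes Hsp90aa1, Hsp90ab1 and Ptges3; and the targets Tiparp, Nqo1 and Xdh. All 9 were found among the 49568 genes counted in both deposited tables. The libraries were made from 2 populations sorted from mouse bone marrow, multipotent progenitors (MPP) and long-term haematopoietic stem cells (LT-HSC). Each came from mice labelled as Ahr knockouts (Ahr-KO) or as wild type (WT), which gave 4 groups of 5 libraries: Ahr-KO LT-HSC, WT LT-HSC, Ahr-KO MPP and WT MPP. All 4 groups are labelled C57BL/6, untreated, and 8 to 12 weeks old. The labels give neither the knockout allele, nor the markers of the sort, nor whether animals were pooled or each library came from its own animal, so that p-values measure the spread between these libraries only. The study's stated interest is the set of AHR-controlled genes behind stem cell function and proliferation.

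AHR is a ligand-activated transcription factor of the basic helix-loop-helix PAS (bHLH-PAS) family. Without a ligand it waits in the cytosol, held by HSP90 and the co-chaperone p23, which Ptges3 encodes. With a ligand it enters the nucleus, pairs with ARNT and binds dioxin response elements near its targets. AHRR competes with AHR for ARNT, and the ADP-ribosyltransferase TIPARP dampens the receptor, so both close feedback loops. In human blood stem cells AHR is best known because blocking it helps the cells expand in culture.

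Promoter sequences, from 250 bases before to 50 bases after the gene start, were found for 5 of the 9 genes (Arnt, Ahrr, Ptges3, Tiparp and Nqo1; RefSeq, build GRCm38.p6). Those of Ahrr, Tiparp and Nqo1 are shown, since these are the genes with a window here that AHR itself is known to induce. They run 5′ to 3′ along the gene, and capitals mark the core of the dioxin response element, GCGTG, on either strand (CACGC is the core on the other strand). The Ahrr region is chr13:74292282-74292581 on the minus strand, that of Tiparp is chr3:65528197-65528496 on the plus strand, and that of Nqo1 is chr8:107403156-107403455 on the minus strand.
Ahrr: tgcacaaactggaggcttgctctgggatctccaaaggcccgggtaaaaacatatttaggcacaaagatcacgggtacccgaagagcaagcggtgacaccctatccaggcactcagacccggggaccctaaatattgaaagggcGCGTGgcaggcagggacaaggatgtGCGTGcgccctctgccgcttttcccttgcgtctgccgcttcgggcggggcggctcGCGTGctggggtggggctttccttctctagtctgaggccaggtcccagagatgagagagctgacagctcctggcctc
Tiparp: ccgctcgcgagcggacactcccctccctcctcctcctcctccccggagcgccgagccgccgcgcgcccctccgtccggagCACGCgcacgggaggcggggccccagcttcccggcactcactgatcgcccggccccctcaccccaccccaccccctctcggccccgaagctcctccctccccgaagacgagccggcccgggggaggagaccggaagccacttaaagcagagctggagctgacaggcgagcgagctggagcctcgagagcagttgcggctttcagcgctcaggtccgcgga
Nqo1: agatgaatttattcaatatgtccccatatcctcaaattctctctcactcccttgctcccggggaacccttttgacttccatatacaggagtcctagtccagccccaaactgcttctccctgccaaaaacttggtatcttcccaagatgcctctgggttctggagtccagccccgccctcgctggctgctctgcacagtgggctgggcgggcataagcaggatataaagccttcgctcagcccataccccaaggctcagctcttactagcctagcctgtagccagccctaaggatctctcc

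The core stood 3 times in the Ahrr window, 1 time in that of Tiparp and 0 times in that of Nqo1. It stood 2 times in the Ptges3 window and 1 time in the Arnt window. Of all 32851 promoter windows of this length, 32.4% hold it at least once, so these matches describe the letters only. The antioxidant response element core TGACNNNGC, searched on both strands, stood 2 times in the Arnt window, 1 time in that of Ptges3 and in none of the other 3, against 12.4% of all windows. The heat shock element core GAANNTTC, which reads the same on both strands, stood in 0 of the 5 windows, against 7.86% of all windows. These other motifs are not capitalised.

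The sums of the markers of both sorted populations differed as the labels say. The markers were chosen with earlier results of these data known, so this match is no independent check of the labels. The 15 LT-HSC markers, Mecom and Slamf1 among them, summed to 954 to 1488 CPM (counts scaled to the same library size) in the MPP libraries and 2860 to 3624 CPM in the LT-HSC libraries. The 10 MPP markers, Flt3 and Cd48 among them, summed to 5902 to 11599 CPM in MPP and 643 to 2438 CPM in LT-HSC, although 1 of them, Cd38, was lower in MPP in both genotypes (log2 fold change -2.01 in Ahr-KO and -1.66 in WT). Libraries held 13712668 to 21622653 counts. WT LT-HSC 1 stood apart: it correlated with its group at r = 0.928 to 0.932 across genes, where each of the other 19 libraries reached at least 0.978 with the closest library of its group. Its sum of Kit, Ly6a and Ptprc, genes of the stem and progenitor gate, was 822 CPM, below the 952 to 1655 CPM of the MPP libraries and the 1820.2 to 2259 CPM of the other 9 LT-HSC libraries. Ahr-KO LT-HSC 2 and 3 held 1138 and 1605 CPM of 12 neutrophil markers, while the remaining 8 LT-HSC libraries spanned 7.18 to 130.3 CPM. No marker of the neutrophil list was at 0 in a whole group. Values of the 9 genes that turned most on these 3 libraries are also given without them. In bulk libraries fewer cells of a type and less RNA per cell cannot be told apart.

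The targeted gene, Ahr (chromosome 12, 35497974 to 35535038, minus strand), was counted in every library, and its level did not separate the libraries labelled Ahr-KO from WT. It had 29.7, 21.7, 23.1, 18.5 and 24.9 CPM in LT-HSC labelled Ahr-KO and 22.1, 28.4, 20.8, 24.5 and 36.6 CPM in WT LT-HSC. Only the lowest Ahr-KO LT-HSC library lay below the WT range, and the log2 fold change of -0.15 ± 0.18 (SE, edgeR adjusted p = 0.861) did not pass the test. In MPP it had 17.1, 9.80, 14.4, 19.01 and 19.2 CPM in the libraries labelled Ahr-KO and 5.80, 14.2, 12.3, 10.2 and 6.45 CPM in WT. Here 4 of the 5 Ahr-KO libraries lay above every WT library, at 15.9 ± 3.91 CPM in Ahr-KO and 9.81 ± 3.66 CPM in WT (SD, n = 5 each). That log2 fold change of 0.69 ± 0.27 had an unadjusted p of 0.0237 in edgeR and an adjusted p of 0.663. A partial deletion may leave RNA of the locus, and which exons carried the reads was not analysed here, so the directions below are between libraries as labelled. The exons of Ahr share 2.06% of their bases with an antisense transcript, Gm48236, which unstranded reads cannot separate.

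Between the populations, Ahr had a lower mean in MPP than in LT-HSC in both genotypes, and the difference passed the test in WT. In WT all 5 MPP libraries lay below all 5 LT-HSC libraries, at 9.81 ± 3.66 CPM in MPP and 26.5 ± 6.35 CPM in LT-HSC. Ahr fell by 1.43 on the log2 scale (SE 0.24, edgeR adjusted p = 0.000263). In the libraries labelled Ahr-KO the highest MPP library (19.2 CPM) lay above the lowest LT-HSC library (18.5 CPM). Their means were 15.9 ± 3.91 CPM in MPP and 23.6 ± 4.14 CPM in LT-HSC, and the log2 fold change of -0.57 ± 0.24 had an adjusted p of 0.0966. The same contrast fitted on its own 10 libraries, in place of all 20, gave -0.59 and an adjusted p of 0.0336. The difference between the 2 contrasts, which is also the Ahr-KO effect in MPP minus that in LT-HSC, was 0.87 ± 0.34 and did not pass (unadjusted p = 0.0189, adjusted p = 0.701).

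**Figure D1:**
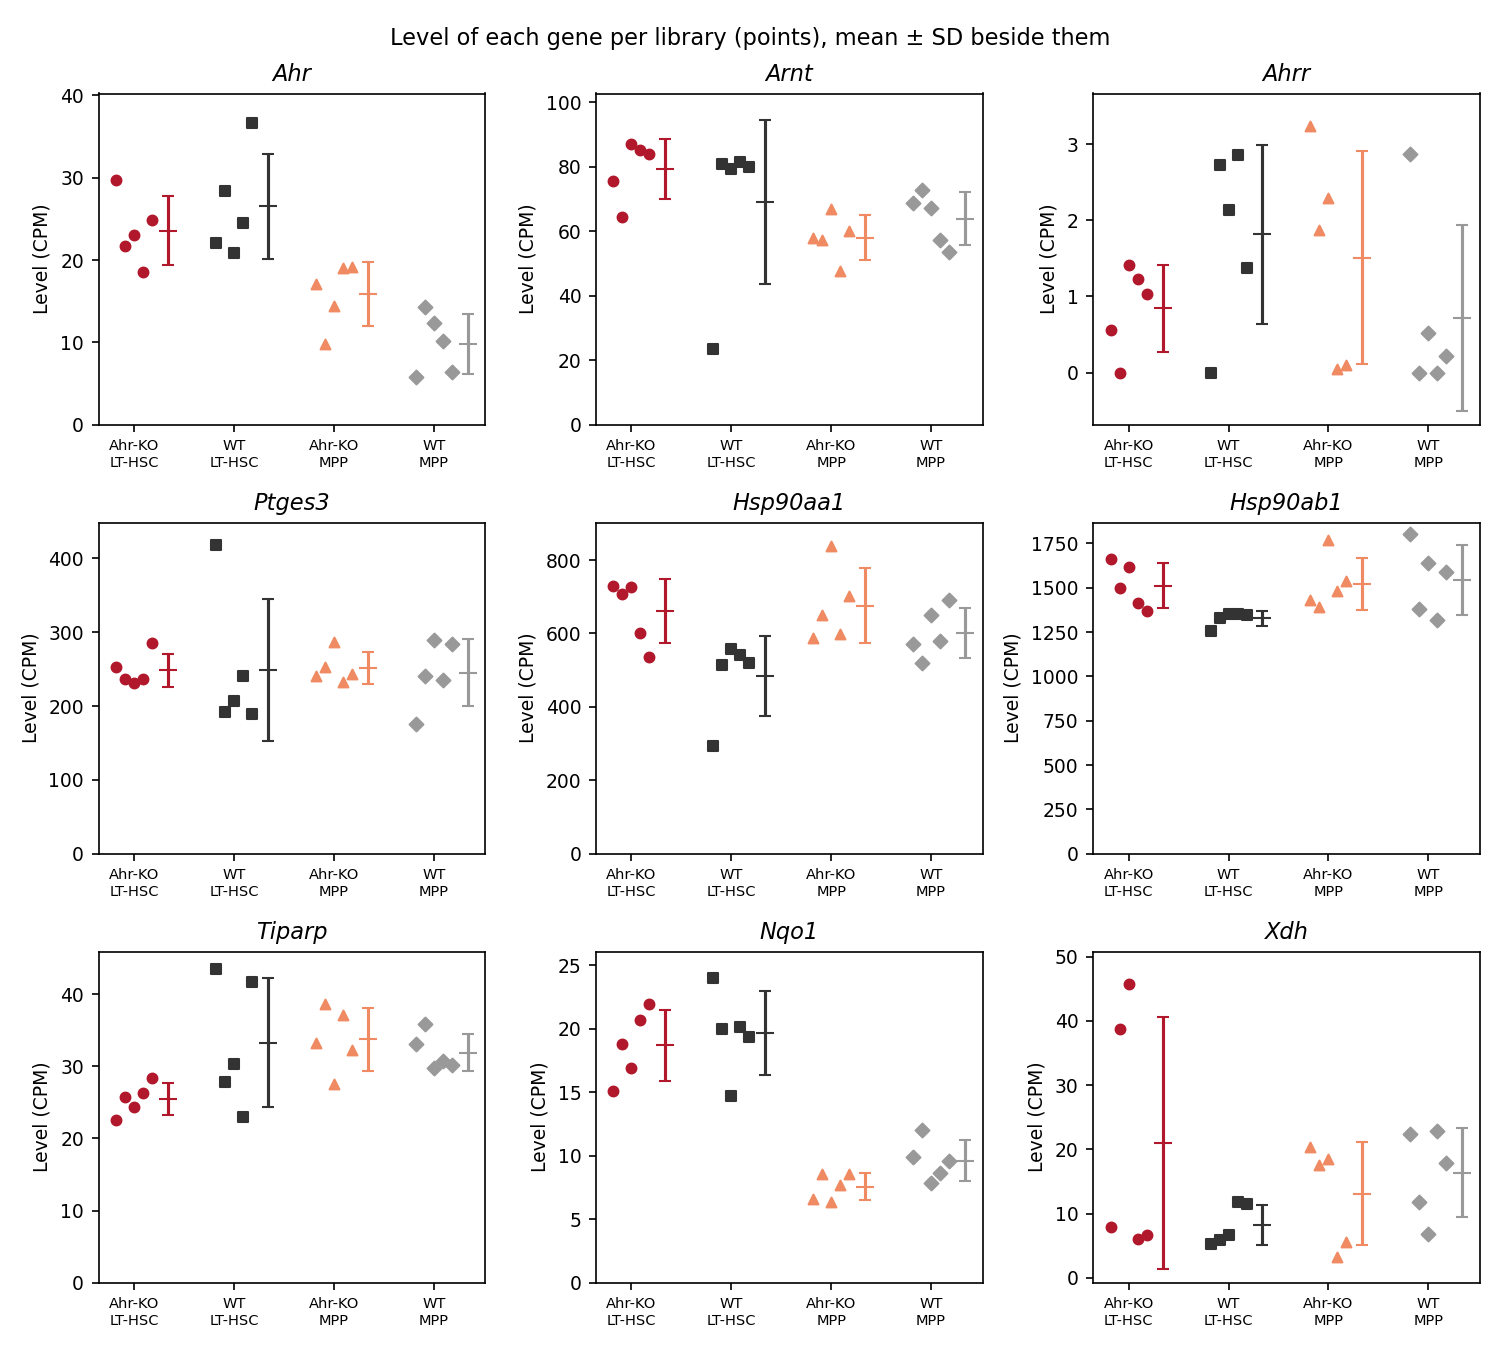
Each panel plots the level of 1 gene in CPM, with 1 point per library and the mean ± SD of its 5 libraries beside them, for Ahr-KO LT-HSC, WT LT-HSC, Ahr-KO MPP and WT MPP. Ahr in WT and Nqo1 in both genotypes are lower in every MPP library than in every LT-HSC library, Xdh is high in Ahr-KO LT-HSC 2 and 3 (38.8 and 45.7 CPM), and WT LT-HSC 1 stands alone for Arnt (23.5 CPM), Ptges3 (418 CPM) and Hsp90aa1 (292 CPM).

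Over the 9 genes, edgeR made calls between populations and none between genotypes. Between libraries labelled Ahr-KO and WT, edgeR called 0 of 9 in LT-HSC, where it called 0.00622% of all 16065 genes tested. It called 0 of 8 in MPP, where it called 0.0311% of 16077. With so few calls over all genes, a count of 0 says little about these genes. At an unadjusted p under 0.05 were 3 of the 9 in LT-HSC, Hsp90aa1, Hsp90ab1 and Xdh, against 8.85% of all genes tested, and 1 of 8 in MPP, Ahr, against 6.62%. DESeq2 called 0 of the 9 in either comparison, where over all genes it called 149 in LT-HSC and 50 in MPP. Limma voom called 1 in LT-HSC, Hsp90aa1, and 0 in MPP, where over all genes it called 305 and 8. Between MPP and LT-HSC, edgeR called 2 of 9 in WT, Ahr and Nqo1, both lower in MPP, where 22.3% of 17416 genes were called (11.0% higher, 11.3% lower). It called 1 of 9 in the libraries labelled Ahr-KO, Nqo1, also lower, where 23.2% were called (12.5% higher, 10.7% lower). The share called among the 9 genes was no higher than over all genes, and the median log2 fold change of the 9 genes was -0.06 in WT and 0.01 in Ahr-KO. The change of the Ahr-KO effect between the populations was called for 0 of 9 genes by edgeR, DESeq2 or voom. Over all genes, edgeR called 0% of 17416 for this change, while DESeq2 called 51 genes and voom 18. In edgeR 2 of the 9 had an unadjusted p under 0.05, Ahr and Tiparp, against 6.46% of all genes.

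**Figure D2:**
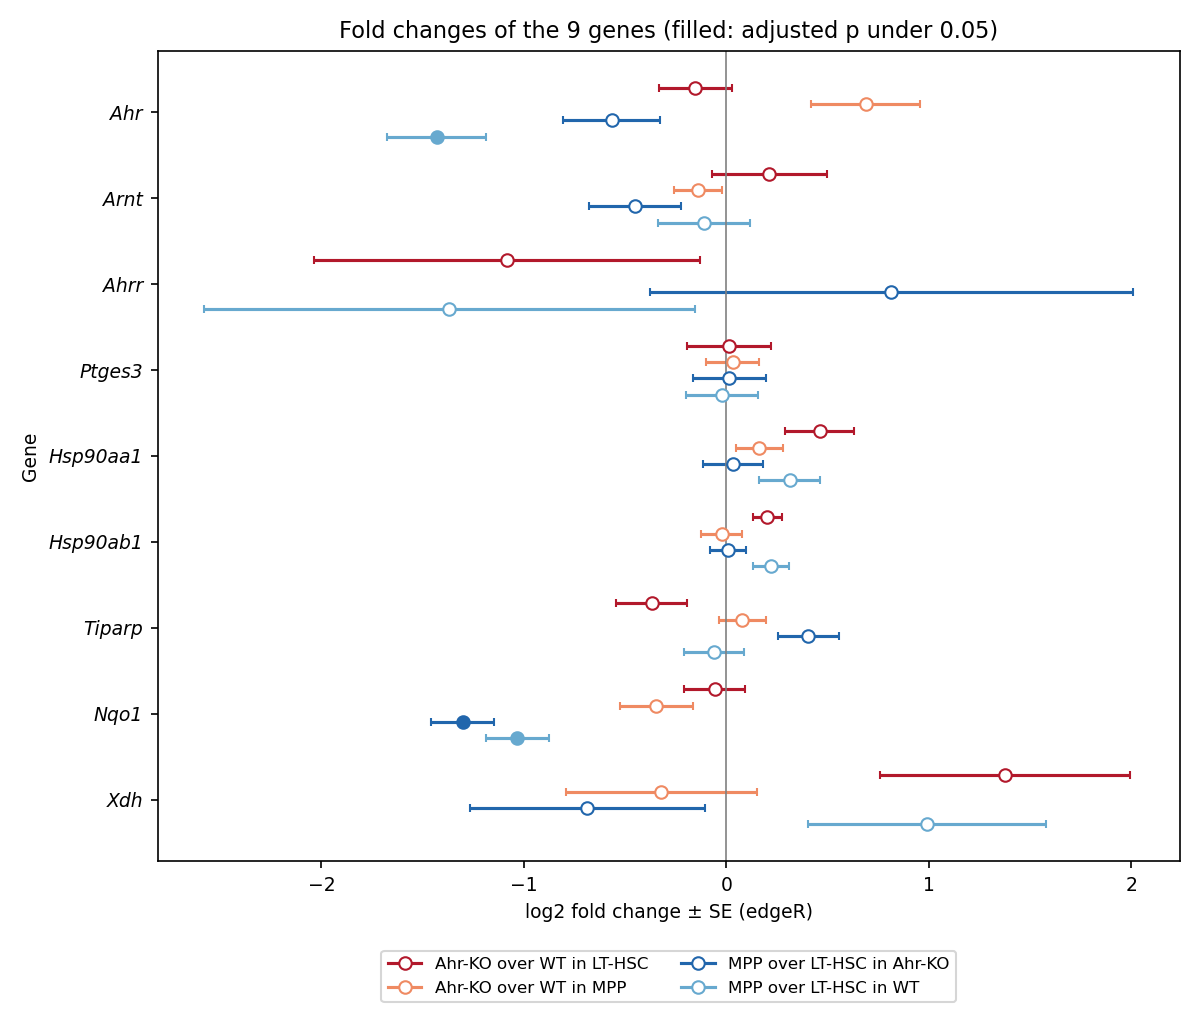
The horizontal axis gives the log2 fold change ± SE of each of the 9 genes from edgeR in 4 comparisons, Ahr-KO over WT in LT-HSC and in MPP and MPP over LT-HSC in Ahr-KO and in WT, and filled points mark an adjusted p under 0.05. The filled points are Ahr in WT (-1.43) and Nqo1 in Ahr-KO and in WT (-1.30 and -1.03), and Ahrr has no point for Ahr-KO over WT in MPP because its counts were too low to test.

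Arnt (chromosome 3, 95434388 to 95497240, plus strand) encodes the partner without which AHR does not bind DNA, and it also pairs with hypoxia-inducible factors. It had 75.6, 64.5, 86.9, 85.1 and 83.8 CPM in LT-HSC labelled Ahr-KO and 23.5, 80.8, 79.2, 81.5 and 80.02 CPM in WT LT-HSC. WT LT-HSC 1, at 23.5 CPM, was the lowest of the 20 libraries, while the other 4 WT libraries spanned 79.2 to 81.5 CPM. The log2 fold change of Ahr-KO over WT was 0.21 ± 0.28 (adjusted p = 0.888), and without WT LT-HSC 1 it was -0.01 (adjusted p = 0.968). MPP libraries held 47.5 to 66.9 CPM in Ahr-KO and 53.6 to 72.9 CPM in WT (log2 fold change -0.14 ± 0.12, adjusted p = 0.853).

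The contrast of Arnt between populations turned on that same library. MPP over LT-HSC had a log2 fold change of -0.11 ± 0.23 in WT (adjusted p = 0.788), and without WT LT-HSC 1 it was -0.33 and passed (adjusted p = 0.0248). In the libraries labelled Ahr-KO it was -0.45 ± 0.23 (adjusted p = 0.167), with 58.0 ± 6.96 CPM in MPP and 79.2 ± 9.29 CPM in LT-HSC. The Ahr-KO value passed when its own 10 libraries alone were fitted, at -0.47 with an adjusted p of 0.00578, and also without WT LT-HSC 1 and Ahr-KO LT-HSC 2 and 3 (-0.49, adjusted p = 0.00266).

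Per kilobase of exon, which allows genes to be compared, Arnt stood above Ahr in all 4 groups. The ratio of Ahr to Arnt was 0.392 ± 0.0868 in Ahr-KO LT-HSC and 0.602 ± 0.3601 in WT LT-HSC, where WT LT-HSC 1 alone reached 1.22 and the other 4 averaged 0.446 ± 0.110. It was 0.364 ± 0.116 in Ahr-KO MPP and 0.198 ± 0.0621 in WT MPP (SD, n = 5 each). These ratios were not tested.

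Ahrr (chromosome 13, 74211118 to 74292331, minus strand), the repressor that AHR itself induces, was close to the limit of detection. Its counts were 11, 0, 27, 27 and 17 in Ahr-KO LT-HSC and 0, 60, 42, 53 and 29 in WT LT-HSC. They were 46, 26, 45, 1 and 2 in Ahr-KO MPP and 42, 0, 9, 0 and 4 in WT MPP. Libraries of 1 group thus ran from 0 or near 0 to 27 counts or more, and a count of 0 allows up to 3. Ahr-KO over WT in LT-HSC gave a log2 fold change of -1.08 ± 0.95 (adjusted p = 0.788), and in the fit of the 10 MPP libraries the gene was too low to be tested. Fits that kept it in MPP gave the opposite sign and no call, with a log2 fold change of 1.09 in all 20 libraries (adjusted p = 0.961), 1.08 with no filter (adjusted p = 0.823) and 0.78 to 1.43 where 1 of 6 replicates was left out. MPP over LT-HSC gave 0.82 ± 1.19 in Ahr-KO (adjusted p = 0.689) and -1.37 ± 1.21 in WT (adjusted p = 0.475). Voom, in place of edgeR, gave -4.14 in WT (adjusted p = 0.0440), so the size and the call of this value depend on the test.

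The chaperones were the most abundant of the 9 genes. Per kilobase of exon Hsp90ab1 led with group means of 443 to 515 CPM, followed by Hsp90aa1 (123 to 172) and Ptges3 (111 to 113). All 6 remaining genes averaged under 13 CPM per kilobase in every group. Arnt, Nqo1 and Tiparp overlapped each other in this order (Nqo1 4.87 to 12.6, Arnt 7.24 to 9.89, Tiparp 5.84 to 7.74), Ahr came next (1.59 to 4.30) with Xdh (0.897 to 2.29), and Ahrr was last (0.0763 to 0.193). The means of Hsp90aa1 and Ptges3 differed by less than the larger of their SDs in 1 group, WT LT-HSC, and those of Ahr and Xdh in 2, Ahr-KO LT-HSC and WT MPP.

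**Figure D3:**
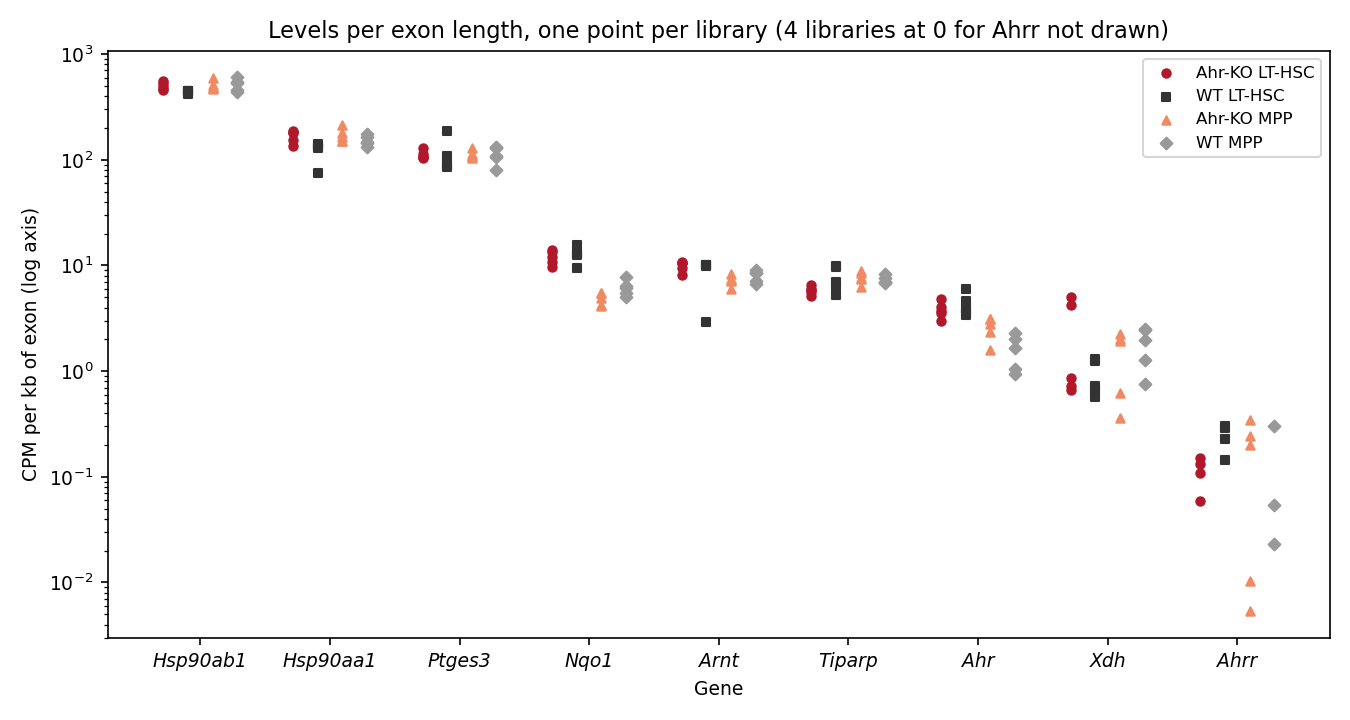
The vertical log axis gives CPM per kilobase of exon for each of the 9 genes, with 1 point per library in Ahr-KO LT-HSC, WT LT-HSC, Ahr-KO MPP and WT MPP and 4 libraries at 0 for Ahrr left out. Hsp90ab1, Hsp90aa1 and Ptges3 lie far above the other 6 genes, and Ahrr lies lowest.

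Hsp90ab1 (chromosome 17, 45567775 to 45573271, minus strand) encodes the constitutive HSP90 of the cytosol. In LT-HSC it had 1662, 1500.4, 1615, 1412 and 1366 CPM in the libraries labelled Ahr-KO and 1255, 1329.6, 1354, 1354 and 1344 CPM in WT. The lowest Ahr-KO library exceeded the highest WT library, and the means differed 1.14-fold. A log2 fold change of 0.20 ± 0.07 had an unadjusted p of 0.0182 and an adjusted p of 0.509, and without WT LT-HSC 1 it was 0.18 (adjusted p = 0.128). In MPP the groups overlapped, at 1522 ± 148 CPM in Ahr-KO and 1546 ± 198 CPM in WT (log2 fold change -0.02 ± 0.10, adjusted p = 0.974).

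Hsp90aa1 (chromosome 12, 110690605 to 110702728, minus strand) encodes the stress-inducible HSP90. It had 729, 708, 726, 603 and 535 CPM in LT-HSC labelled Ahr-KO and 292, 513, 557, 541 and 520.2 CPM in WT LT-HSC. In 4 of the 5 Ahr-KO libraries it lay above every WT library, and WT LT-HSC 1 was the lowest of all. Its log2 fold change of 0.46 ± 0.17 had an unadjusted p of 0.0212 and an adjusted p of 0.509. It was 0.32 without WT LT-HSC 1 (adjusted p = 0.0890) and 0.22 without that library and Ahr-KO LT-HSC 2 and 3 (adjusted p = 0.291). Between MPP groups its log2 fold change was 0.16 ± 0.12 (adjusted p = 0.842), with 675 ± 102 CPM in Ahr-KO and 602 ± 67.9 CPM in WT.

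The level of Hsp90aa1 is shared with near-identical copies, so its value is uncertain. Of its 50-base stretches, 47.5% also occur in transcripts of other genes, chiefly the processed pseudogenes Gm12346 (41.8%) on chromosome 11 and Gm5844 (29.9%) on chromosome 3. Gm12346 was counted at 31.8% to 35.6% of the Hsp90aa1 count, and Gm5844 at 24.5% to 27.9%, over the 20 libraries. Hsp90ab1 shared 3.44% of its stretches. Per kilobase, Hsp90aa1 made up 24.9% ± 1.29 of the HSP90 pair in Ahr-KO LT-HSC and 21.6% ± 3.66 in WT LT-HSC (23.2% ± 0.532 without WT LT-HSC 1, at 15.1%). In MPP the share was 25.2% ± 1.41 in Ahr-KO and 23.0% ± 2.31 in WT (SD, n = 5 each).

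Ptges3 (chromosome 10, 128058954 to 128077272, plus strand), the gene of the co-chaperone p23, had nearly the same mean in all 4 groups. These means were 249 ± 22.4 CPM in Ahr-KO LT-HSC, 249 ± 96.6 CPM in WT LT-HSC, 251 ± 21.3 CPM in Ahr-KO MPP and 245 ± 46.0 CPM in WT MPP. The wide spread in WT LT-HSC came with 418 CPM in WT LT-HSC 1, against 189 to 240.3 CPM in the other 4. Ahr-KO over WT gave a log2 fold change of 0.01 ± 0.21 in LT-HSC (adjusted p = 0.990), which was 0.28 without WT LT-HSC 1 (adjusted p = 0.113), and 0.03 ± 0.13 in MPP (adjusted p = 0.973). Of its 50-base stretches 19.6% also occur in other transcripts, mostly those of Ptges3-ps.

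In edgeR the HSP90 genes and Ptges3 also gave no call between MPP and LT-HSC. Hsp90ab1 had a log2 fold change of 0.01 ± 0.09 in Ahr-KO (adjusted p = 0.952) and 0.22 ± 0.09 in WT (adjusted p = 0.0851). Hsp90aa1 had 0.03 ± 0.15 in Ahr-KO (adjusted p = 0.910) and 0.31 ± 0.15 in WT (adjusted p = 0.147), which was 0.18 without WT LT-HSC 1 (adjusted p = 0.252). Ptges3 had 0.01 ± 0.18 in Ahr-KO (adjusted p = 0.969) and -0.02 ± 0.18 in WT (adjusted p = 0.952), where it was 0.25 without WT LT-HSC 1 (adjusted p = 0.127) and voom called it higher in MPP (0.30, adjusted p = 0.0209).

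Tiparp (chromosome 3, 65528410 to 65555518, plus strand), whose product ADP-ribosylates AHR and limits its activity, had 22.5, 25.7, 24.3, 26.4 and 28.4 CPM in LT-HSC labelled Ahr-KO and 43.5, 27.9, 30.3, 22.98 and 41.7 CPM in WT LT-HSC. The WT libraries were the more spread, and 1 Ahr-KO library lay below their range. Its value of -0.37 ± 0.18 on the log2 scale did not pass (unadjusted p = 0.0595, adjusted p = 0.571), and was -0.26 without WT LT-HSC 1 (adjusted p = 0.383). In MPP the groups overlapped, at 33.7 ± 4.39 CPM in Ahr-KO and 31.9 ± 2.56 CPM in WT (log2 fold change 0.08 ± 0.12, adjusted p = 0.918).

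Between the populations the values of Tiparp had opposite signs in the 2 genotypes, and neither passed. MPP over LT-HSC was 0.40 ± 0.15 in Ahr-KO (adjusted p = 0.0581) and -0.06 ± 0.15 in WT (adjusted p = 0.824). The difference of these effects, 0.47 ± 0.21, had an unadjusted p of 0.0400 and an adjusted p of 0.767. The Ahr-KO contrast passed when its 10 libraries were fitted alone (0.38, adjusted p = 0.0238). The WT value was 0.05 without WT LT-HSC 1. An antisense gene, 4931440P22Rik, overlaps 5.12% of the Tiparp exon bases, and its reads cannot be told apart there.

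Nqo1 (chromosome 8, 107388225 to 107403206, minus strand) encodes a quinone reductase that protects cells from oxidative damage and is a target of both AHR and the stress factor NRF2. It was the only one of the 3 targets that edgeR called in the 4 comparisons, apart from Tiparp in the fit of 10 libraries given above and in 1 with the replicate number as a block (0.43, adjusted p = 0.0363). In the libraries labelled Ahr-KO it had 6.60, 8.58, 6.37, 7.68 and 8.59 CPM in MPP and 15.1, 18.8, 16.9, 20.7 and 21.9 CPM in LT-HSC. In WT it had 9.89, 12.1, 7.83, 8.61 and 9.60 CPM in MPP and 24.02, 19.99, 14.7, 20.1 and 19.4 CPM in LT-HSC. In both genotypes all 5 MPP libraries lay below all 5 LT-HSC libraries.

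Nqo1 fell by 1.30 on the log2 scale in Ahr-KO MPP (SE 0.16, adjusted p = 6.48e-06) and fell by 1.03 in WT (SE 0.16, adjusted p = 7.81e-05). The difference of the 2 falls, -0.27 ± 0.22, did not pass (adjusted p = 0.898). Ahr-KO over WT gave -0.06 ± 0.15 in LT-HSC (adjusted p = 0.947) and -0.35 ± 0.18 in MPP (unadjusted p = 0.0796, adjusted p = 0.770), so no change with the knockout label was detected. The gene shares no 50-base stretch with another gene's transcripts.

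Xdh (chromosome 17, 73883895 to 73950196, minus strand) encodes xanthine dehydrogenase, which carries out the last steps of purine breakdown to uric acid. It had 7.87, 38.8, 45.7, 6.04 and 6.61 CPM in LT-HSC labelled Ahr-KO and 5.23, 5.89, 6.67, 11.9 and 11.5 CPM in WT LT-HSC. Ahr-KO LT-HSC 2 and 3, at 38.8 and 45.7 CPM, were the highest of all 20 libraries, and the other 3 lay within the WT range. The log2 fold change of 1.38 ± 0.62 had an unadjusted p of 0.0481 and an adjusted p of 0.561. Without those 2 libraries it was -0.26 (adjusted p = 0.999).

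The same 2 libraries were high in markers of granulocyte-monocyte progenitors. Of the 8 markers, among them Mpo, Elane and Cebpa, 7 had a positive log2 fold change of Ahr-KO over WT in LT-HSC, and none was at 0 in a whole group. Their sum was 535, 2416, 2049.8, 268 and 135 CPM in LT-HSC labelled Ahr-KO and 98.2, 281, 246, 1366 and 600.4 CPM in WT LT-HSC. Of the 12 neutrophil markers 10 were tested, and all 10 had a positive value. The same 2 libraries were also the highest of the 10 LT-HSC libraries in some other marker lists. They were not both the highest in B cell, T and NK cell, megakaryocyte, or mast cell and basophil markers. The 13 monocyte and macrophage markers summed to 2422 and 2651 CPM in them and to 466 to 742 CPM in the other 8, and all 13 had a positive value. The 11 erythroid markers summed to 4631 and 5093 CPM in them and to 2071 to 3797 CPM in the other 8, and all 11 had a positive value. The 10 MPP markers summed to 2438 and 2288 CPM in them and to 643 to 1534 CPM in the other 8. Mpo stands in both this list and that of granulocyte-monocyte progenitors, at a mean of 628 CPM in Ahr-KO LT-HSC and 304 CPM in WT LT-HSC. The 8 stromal markers, Col1a1 among them, summed to 153 and 4142 CPM in them and to 72.5 to 134 CPM in the other 8. None of these markers was at 0 in a whole group. The part of these markers in the Xdh difference was not tested.

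In MPP, Xdh had 20.4, 17.6, 18.5, 3.29 and 5.65 CPM in Ahr-KO and 22.4, 11.8, 6.86, 22.9 and 17.9 CPM in WT. Ahr-KO MPP 4 and 5 were low in Xdh, and they also had the lowest sums of the 8 progenitor markers among the MPP libraries, 3240.3 and 4324 CPM. These sums ran to 11528 CPM in Ahr-KO MPP and from 5658 to 8912 CPM in WT MPP. Every MPP library thus had a larger sum than Ahr-KO LT-HSC 2 and 3, and less Xdh than either. In edgeR the log2 fold change of Xdh for Ahr-KO over WT in MPP was -0.32 ± 0.47 (adjusted p = 0.917). MPP over LT-HSC gave -0.69 ± 0.58 in Ahr-KO (adjusted p = 0.444) and 0.99 ± 0.59 in WT (adjusted p = 0.254). The Ahr-KO value was 0.90 without Ahr-KO LT-HSC 2 and 3 (adjusted p = 0.256). Of the 50-base stretches of Xdh 9.6% also occur in transcripts of other genes.

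**Figure D4:**
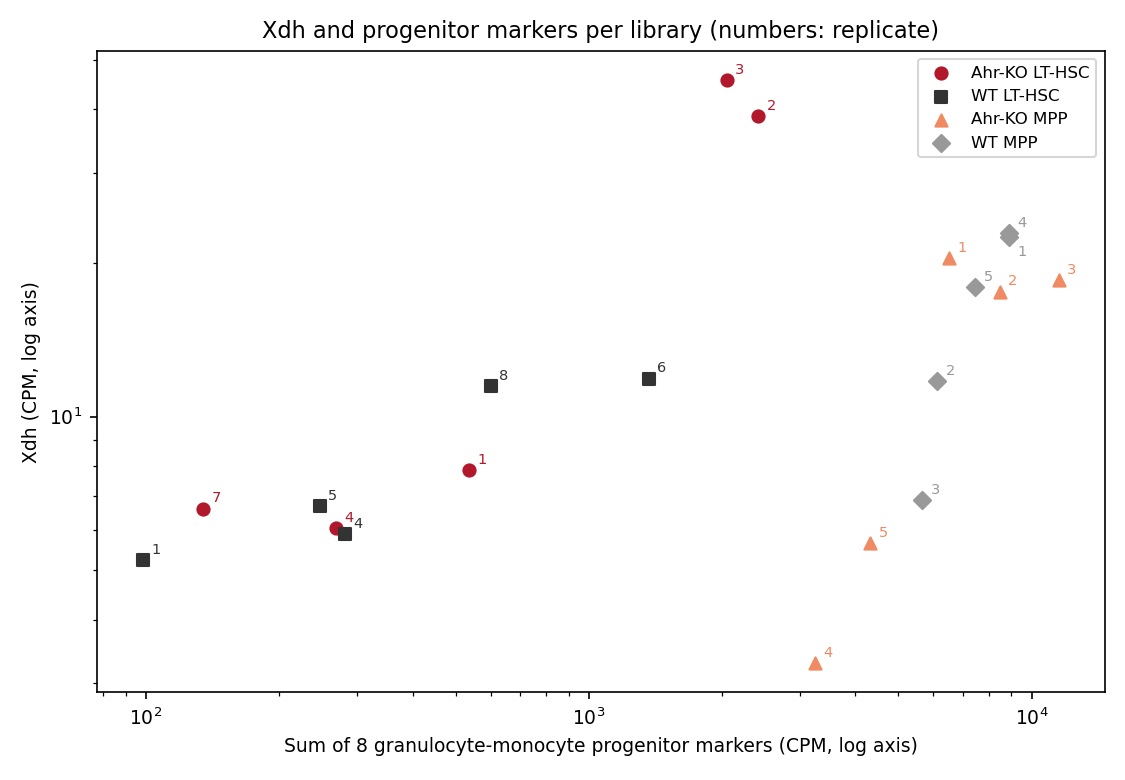
The vertical log axis gives Xdh and the horizontal log axis the summed level of 8 granulocyte-monocyte progenitor markers, both in CPM, with 1 numbered point per library of Ahr-KO LT-HSC, WT LT-HSC, Ahr-KO MPP and WT MPP. Ahr-KO LT-HSC 2 and 3 lie above the other LT-HSC libraries on both axes, and within MPP the libraries lowest in Xdh are Ahr-KO MPP 4 and 5. Every MPP library has a larger marker sum and less Xdh than Ahr-KO LT-HSC 2 and 3.

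The wider pathway was read through lists of genes, each described by its counts beside the background above and with no test of the list. Some genes stand in more than 1 list. Here and in the list paragraphs that follow, higher, lower, rose and fell refer to MPP over LT-HSC within the named genotype. The comparison of Ahr-KO with WT comes after them. The list of AHR partners holds Ahr itself with chaperones, import factors and co-activators, and 23 of its genes were tested. Among libraries labelled Ahr-KO, edgeR called 1 higher and 2 lower in MPP than in LT-HSC (13.0%, against 23.2% of all genes). In WT it called 2 higher and 4 lower, Ahr among the 4 (26.1%, against 22.3% of all genes). The median log2 fold change was -0.23 in Ahr-KO and -0.16 in WT. Src, the kinase that is released from the AHR complex, fell by 1.56 (SE 0.30) in WT, to 2.14 ± 0.661 CPM in MPP against 6.35 ± 2.02 CPM in LT-HSC. Rela, the NF-kappaB subunit that can bind AHR, fell by 0.36 in Ahr-KO and fell by 0.35 in WT (SE 0.07 each). Nrip1, a co-regulator of nuclear receptors, fell by 0.66 in Ahr-KO (SE 0.21).

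Of 26 AHR target genes 14 could be tested, and the classical ones, Cyp1a1, Cyp1a2, Cyp1b1 and Aldh3a1, were too low. Of the 14, 2 were higher and 3 lower in MPP than in LT-HSC in Ahr-KO (35.7%, against 23.2% of all genes). In WT 2 were higher and 4 lower (42.9%, against 22.3% of all genes). Socs2, a suppressor of cytokine signalling, fell by 2.72 in Ahr-KO and fell by 2.66 in WT (SE 0.12 each). In WT it stood at 6.83 ± 0.528 CPM in MPP and 43.2 ± 4.58 CPM in LT-HSC. Selenbp1, a selenium-binding protein gene, fell by 0.89 in Ahr-KO (SE 0.12). Lpcat2, an enzyme of phospholipid remodelling, rose by 1.84 in WT (SE 0.25), to 27.4 ± 2.41 CPM in MPP against 7.65 ± 3.47 CPM in LT-HSC.

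In the bHLH-PAS family, to which AHR, ARNT and AHRR belong, every call was lower in MPP than in LT-HSC. Of 14 tested members 3 were lower in Ahr-KO (21.4%, against 10.7% of all genes called lower). In WT 4 were lower, Ahr among the 4 (28.6%, against 11.3% of all genes called lower), and 0 were higher in either genotype. In either direction, 23.2% of all genes were called in Ahr-KO and 22.3% in WT. The median log2 fold change of the list was -0.51 in both genotypes. Npas3, a neuronal member, was lower in both, at 0.0305 ± 0.0456 CPM in Ahr-KO MPP against 0.969 ± 0.419 CPM in Ahr-KO LT-HSC, levels that rest on few reads. Hif1a, which pairs with ARNT under low oxygen, fell by 0.30 in Ahr-KO (SE 0.09). Epas1, its relative, fell by 2.29 in WT (SE 0.79) and was also low, at 0.245 ± 0.144 CPM in MPP against 1.23 ± 0.762 CPM in LT-HSC.

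NRF2 is the factor that shares Nqo1 with AHR, and 20 of its targets were tested. Of these, 1 was higher and 6 lower in MPP than in LT-HSC in Ahr-KO (35.0%, against 23.2% of all genes). In WT 5 were higher and 6 lower (55.0%, against 22.3% of all genes). Srxn1, which restores oxidised peroxiredoxins, fell by 1.17 in Ahr-KO and fell by 1.32 in WT (SE 0.18 each). Osgin1, an oxidative stress response gene, fell by 1.44 in WT (SE 0.24). Gclm, a subunit of the first enzyme of glutathione synthesis, fell by 0.56 in Ahr-KO (SE 0.09). Nqo1 was among the genes that fell in both genotypes.

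Cytosolic chaperones gave few calls, with 1 of 23 higher and 2 lower in MPP than in LT-HSC in Ahr-KO (13.0%, against 23.2% of all genes). In WT 0 were higher and 2 lower (8.70%, against 22.3% of all genes). Hsf1, the heat shock transcription factor, rose by 0.45 in Ahr-KO (SE 0.14), and Unc45a, a myosin and HSP90 co-chaperone, fell by 0.38 (SE 0.10). In WT Dnajb1, a heat-inducible co-chaperone of HSP70, fell by 0.47 (SE 0.12) and Bag3, which links HSP70 to autophagy, fell by 0.57 (SE 0.20).

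In the PARP family, to which Tiparp belongs, 3 of 15 were higher and 1 lower in MPP than in LT-HSC in Ahr-KO (26.7%, against 23.2% of all genes). In WT 1 was higher and 1 lower (13.3%, against 22.3% of all genes). Parp8 rose by 2.04 in Ahr-KO and by 1.54 in WT (SE 0.16 each), and Parp12, an interferon-inducible member, fell by 0.68 in Ahr-KO and fell by 0.46 in WT (SE 0.13 each). Of 12 purine genes, the group of Xdh, 2 were higher and 1 lower in Ahr-KO (25.0%), and 1 higher and 1 lower in WT (16.7%), against the same backgrounds. Ampd3, an AMP deaminase, fell by 1.46 in Ahr-KO and fell by 1.13 in WT (SE 0.30 each). Ada, adenosine deaminase, rose by 0.62 in Ahr-KO (SE 0.15), and Hprt, the purine salvage enzyme, rose by 0.37 in WT (SE 0.09).

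Between libraries labelled Ahr-KO and WT, edgeR called 0 genes of these 7 lists in either population, against the backgrounds of 0.00622% and 0.0311% given above. DESeq2 and voom were counted over the 9 genes and not over the lists. At an unadjusted p under 0.05, which 8.85% of all genes met in LT-HSC, were 3 of 23 partners, 2 of 12 targets, 5 of 23 chaperones, 3 of 20 NRF2 targets, 2 of 12 purine genes, 0 of 14 bHLH-PAS genes and 0 of 15 PARP genes. Hsp90aa1 and Hsp90ab1 count among both the partners and the chaperones there, and Xdh among both the targets and the purine genes. In MPP 6.62% of all genes met that threshold. There they were 4 of 23 partners (Ahr and Ncoa2 among the 4), 2 of 13 targets, 4 of 23 chaperones and 0 of 20 NRF2 targets. In the remaining lists they were 1 of 12 purine genes, 3 of 11 bHLH-PAS genes (Ahr and Ncoa2 among the 3) and 1 of 15 PARP genes. The smallest p in LT-HSC belonged to Gclm (log2 fold change 0.36 ± 0.09, adjusted p = 0.421), at 198 ± 20.8 CPM in Ahr-KO and 156 ± 10.3 CPM in WT. Fkbp5, an HSP90 co-chaperone, had -0.32 ± 0.08 (adjusted p = 0.421), at 146 ± 4.94 CPM in Ahr-KO and 184 ± 17.6 CPM in WT. Leaving out the 9 genes, the smallest p of the other lists belonged to Relb (-0.49), Npas2 (0.45), Parp6 (-0.43) and Aprt (0.23), with adjusted p from 0.509 to 0.824.

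In MPP, Src had a log2 fold change of 1.15 ± 0.31 between libraries labelled Ahr-KO and WT (adjusted p = 0.554), at 4.76 ± 1.76 CPM in Ahr-KO and 2.14 ± 0.661 CPM in WT. Hsph1, a large HSP70-like chaperone, had 0.54 ± 0.18 (adjusted p = 0.614), and Ncoa2, a co-activator with a bHLH-PAS domain, had -0.49 ± 0.15 (adjusted p = 0.589). Leaving out the 9 genes, Hmox1 (0.34), Parp3 (0.34) and Adk (-0.23) had the smallest p of their lists, with adjusted p from 0.663 to 0.776. Hes1, a target of AHR and of Notch, had the smallest p of the target list in both populations, with opposite signs. Its log2 fold change was -0.66 ± 0.25 in LT-HSC (adjusted p = 0.509), at 2.03 ± 0.520 CPM in Ahr-KO and 3.23 ± 0.732 CPM in WT. In MPP it was 1.25 ± 0.36 (adjusted p = 0.554), at 2.61 ± 0.886 CPM in Ahr-KO and 1.08 ± 0.325 CPM in WT. The difference of its Ahr-KO effects was 1.93 ± 0.42 (unadjusted p = 0.00018, adjusted p = 0.296).

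Genes most like each of the 9 were found by Pearson's r of log2(CPM + 1) over the 20 libraries, among 11884 genes that averaged 5 CPM or more (11885 for Ahrr). These libraries share groups and depth, so r is a description. For Ahr they included Jam2 (r = 0.908) and Rgs7bp (0.864), and within groups, after each group mean was removed, r was 0.853 for Jam2 and 0.725 for Rgs7bp. For Nqo1 they were Fam213a (0.958), Eya2 (0.953) and Gng11 (0.952), and within groups 0.592, 0.612 and 0.516. For Arnt they were Ano6, Ube3b and Tmem164 (0.955 to 0.961), and for Xdh Pira2, Gm15922 and Nxpe2 (0.878 to 0.891).

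Hsp90aa1 was closest to its copies Gm5844 (0.996) and Gm12346 (0.995), then to P4ha1 (0.908). Hsp90ab1 was closest to Cct8 (0.891), Copz1 (0.874) and Nadk (0.866), and Ptges3 to Nudc-ps1 (0.900), Hikeshi (0.897) and Nfu1 (0.897). Tiparp reached 0.778 with Katna1, then 5530601H04Rik (0.775) and Map3k1 (0.770), and the low counts of Ahrr reached 0.664 with Hps5, then Abcc5 (0.650) and Diexf (0.639). Without WT LT-HSC 1 and Ahr-KO LT-HSC 2 and 3, 8 of the 27 genes found, 3 for each of the 9, stayed among the 3 most like their gene. None of those named for Arnt, Ahrr, Ptges3 and Nqo1 stayed.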

How the data were processed

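The values are raw counts per gene symbol, deposited by the authors as whole numbers in 2 tables, 1 for LT-HSC and 1 for MPP, and joined by symbol. Per the submitters' processing notes, the build was GRCm38.p5 and the tools were STAR 2.5.2b, Trimmomatic 0.36, featureCounts, Subread 1.5.0p3 and DESeq2 1.12.4. The sources used here do not give their order, annotation or settings. Per the labels' protocols, poly(A) RNA was prepared with an unstranded kit, and that text speaks of other cells (DC) and of 3 samples per group. Reads of overlapping antisense genes cannot be separated. No other per-sample column was present, and no 2 libraries held identical counts.

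The 9 genes, the gene lists and the marker lists were chosen with earlier results of these data known. Comparisons used edgeR 4.0.16 in R 4.3.3: filterByExpr, TMM normalization, and the two-sided quasi-likelihood F test with robust dispersions. P-values were adjusted by Benjamini and Hochberg's method over every gene in the fit, and calls took those under 0.05. Ahr-KO and WT were compared within each population on its 10 libraries. MPP and LT-HSC were compared within each genotype, and the Ahr-KO effects between populations, in 1 fit of all 20 libraries. Each standard error is the log2 fold change over the root of F. Levels are CPM on TMM-scaled totals. The procedure was also run on simulated data in which no library stood apart from its group, so that run does not cover the effect of WT LT-HSC 1. Batches are not given in the labels, so that a batch and a group cannot be told apart.

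All 9 genes are named in every comparison. From each list, up to 2 further called genes with the smallest p are named between populations, and the 1 with the smallest p in each Ahr-KO comparison. The 3 genes most like each of the 9 are named, except 1 that is not reported here. Coordinates, exon lengths and shared 50-base stretches come from GENCODE M21 (GRCm38). Library totals of 13712668 to 21622653 counts leave values under 1 CPM imprecise. Without molecular identifiers, limits for a count of 0 cover counting error only. Alternatives were DESeq2 size factors, no filter, DESeq2 1.42.0, limma 3.58.1 voom with sample quality weights, other sets of libraries, each replicate left out, and the replicate number as a block.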

Additional observations from a re-analysis of the deposited data

Results flagged for a closer look

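For each of the 9 genes the 5 libraries of each group were checked for a library far from the others, by its gap to the nearest library over the range of the group (Dixon's criterion, critical value 0.71). Of 36 sets 5 met it, where chance flags about 1 in 20. In 4 of the 5 the library was WT LT-HSC 1. Arnt had 23.5 CPM there, where its 4 fellow libraries had 79.2 to 81.5 CPM. Ptges3 had 418 CPM, against 189 to 240.3 CPM, Hsp90aa1 had 292 CPM, against 513 to 557 CPM, and Hsp90ab1 had 1255 CPM, against 1329.6 to 1354 CPM. In the fifth set Ahrr had 2.87 CPM in WT MPP 1, against 0 to 0.514 CPM in the other 4 WT MPP libraries. Mitochondrial transcripts made up 0.386% of the counts of WT LT-HSC 1, where the rest of its group had 1.07% to 1.26%, and the part of this in the values above was not tested.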

How the results depend on the processing

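Of 857 values recomputed for single genes, 772 kept their direction and their side of the threshold. With the sign kept, 2 lost a call and 14 gained one. The other 69 changed sign, and none of those 69 was a call in the main comparisons. Ptges3 between populations in WT changed sign and gained a call with voom (0.30, adjusted p = 0.0209). The fall of Nqo1 in Ahr-KO MPP held in all alternatives run. The falls of Ahr and Nqo1 in WT MPP held in all but the replicate block. Same-numbered libraries of MPP and LT-HSC in Ahr-KO deviated together weakly (r 0.0281 to 0.25, 2 of 4 pairs over 0.1 and each the best match of the other), and those of the other 3 comparisons did not (r -0.29 to 0.0659). Not every pair passed 0.1 in any comparison, so the numbers are not taken to pair the libraries. That block used fewer libraries and called 0 of the 9 genes in WT, in place of 2 (Ahr -1.68, adjusted p = 0.0825; Nqo1 -1.02, adjusted p = 0.221), and 3 in Ahr-KO, in place of 1.

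With voom, 1 gene was called between genotypes in LT-HSC in place of 0 (Hsp90aa1 0.37, adjusted p = 0.0410), 5 between populations in WT in place of 2 (also Arnt, Ahrr and Ptges3), and 3 in Ahr-KO in place of 1. In Ahr-KO, DESeq2 called 2, the 10 libraries alone 4, and the fit without WT LT-HSC 1 and Ahr-KO LT-HSC 2 and 3 called 2. Arnt gained a call in 4 of these fits, Tiparp in 4 and Ahr in 1. Leaving out each replicate gave 2 to 3 calls in WT, 1 to 1 in Ahr-KO and 0 to 0 between genotypes. These counts go with different numbers of calls over all genes. Voom called 305 genes between genotypes in LT-HSC in place of 1, and 6493 between populations in WT in place of 3876. Between populations in Ahr-KO, the alternatives called 3204 to 5697 genes in place of 4041.

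Signs changed as follows, as log2 fold changes. Between genotypes in LT-HSC, Arnt was -0.0251 with voom, Ahrr 0.90 with the block, and Ptges3 -0.21 with the block and -0.0014 over all 20 libraries. Xdh was -0.26 without Ahr-KO LT-HSC 2 and 3 and -0.39 when WT LT-HSC 1 was left out too, where Nqo1 was 0.0525. In MPP, voom gave -0.0148 for Ptges3 and 0.0032 for Hsp90ab1. Between populations in WT, Ptges3 was 0.30 with voom and 0.25 without the 3 libraries, Tiparp 0.0714 and 0.0518, and Arnt 0.16 with the block. In Ahr-KO, Hsp90ab1 was -0.0033 with DESeq2 size factors, -0.0032 with DESeq2, -0.0228 with voom, -0.0575 with the block and -0.0119 on 10 libraries, and Hsp90aa1 -0.0274 with voom and -0.0858 with the block. Ptges3 was -0.0067 on 10 libraries, -0.0731 without Ahr-KO LT-HSC 2 and 3 and -0.0442 without the 3 libraries, and Xdh 0.90 and 0.93 in those last 2 fits. For the difference of effects Ptges3 was -0.27 with voom, -0.0326 without Ahr-KO LT-HSC 2 and 3 and -0.29 without the 3 libraries, where Xdh was 0.0633. The cause of these sign changes was not tested, and a fit that leaves libraries out shows only that a value depends on them.

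Leaving out each replicate in turn also moved values across 0. In LT-HSC between genotypes Arnt ran from -0.0078 to 0.28, Ptges3 from -0.0808 to 0.28 and Nqo1 from -0.15 to 0.0231, and in MPP Ptges3 from -0.075 to 0.10 and Hsp90ab1 from -0.0807 to 0.0288. In WT Ptges3 ran from -0.13 to 0.25 and Tiparp from -0.19 to 0.0527. In Ahr-KO Ptges3 ran from -0.0726 to 0.0335, Hsp90aa1 from -0.0922 to 0.0466 and Hsp90ab1 from -0.0836 to 0.0098, and for the difference of effects Ptges3 from -0.23 to 0.10.

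Over all genes, edgeR called 1 between genotypes in LT-HSC, DESeq2 149 and voom 305, and edgeR 203 without WT LT-HSC 1. In MPP these were 5, 50 and 8, between populations in WT 3876 with edgeR, 6493 with voom and 113 with the block, and for the difference of effects 0, 51 and 18.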
